A study of Mus musculus with 70 samples.

Results

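Central Tregs (cTregs), sorted as ST2- CD44lo CD62L+ cells, were compared between lungs and spleen. The members were the 10 libraries with this population label, 5 of lungs and 5 of spleen, of 70 libraries in the series, and the same 5 mice gave both tissues. The mice were males that carry the allele Foxp3tm4(YFP/icre)Ayr on a B6.129(Cg) background, called Foxp3-YFP-cre, in which YFP and Cre are expressed from the Foxp3 locus so that Tregs can be sorted by YFP. Mouse 1 was 16.6 weeks old, mouse 2 was 17.1, mouse 3 was 17.4, mouse 4 was 18.1 and mouse 5 was 18.6, and no mouse was treated. In each of these 10 libraries, RNA of 220 sorted cells was amplified and sequenced. Lungs were perfused and digested with collagenase for 30 minutes at body temperature, whereas spleens were disrupted mechanically without enzyme, so the tissue and its digestion cannot be told apart in this comparison. The study names circulating Tregs left in the vessels after perfusion as a limit. With an antibody given into the vessels, it found most lung Tregs labelled, ST2+ or not. The labelled share did not differ with or without perfusion. The study also holds it unlikely that the lung and spleen Tregs were circulating cells alone. The other 2 populations of the series were ST2- CD44hi and ST2+ CD44hi effector Tregs (eTregs) of blood, spleen, lungs, visceral adipose tissue (VAT), colon and skin of the same mice. Some blood and VAT libraries came from fewer than 220 cells.

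Tregs are CD4+ T cells that express the transcription factor FOXP3 and restrain other immune cells. cTregs carry lymph node homing receptors such as CCR7, recirculate through lymphoid organs and are thought of as resting, while eTregs have seen antigen, carry CD44 and settle in tissues. A resting T cell can respond within minutes to receptor signals, cytokines, cAMP or handling stress with the transcription of early-response genes such as Fos, Jun and the Nr4a genes, and enzymatic digestion at body temperature is a known trigger of these genes.

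The 10 libraries held 1829206 to 2670517 counts in lungs and 1838429 to 2610618 in spleen, and the means differed by less than the spread between libraries (exact permutation p 0.611, two-sided, n = 5 each). Detected genes numbered 13337 to 14888 in lungs and 13985 to 15052 in spleen (exact permutation p 0.167). Mitochondrial genes took 0.359% to 0.566% of counts in lungs and 0.359% to 0.434% in spleen (exact permutation p 0.254). The smallest p that 5 libraries against 5 can give is 0.00794. These are 3 comparisons, and none was past 0.05 before adjustment.

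The sorted phenotype was visible in the RNA of both tissues. Foxp3 was at 168, 173, 168, 216 and 152 CPM (counts per 1000000, with TMM scaling) in lung cTregs of mice 1 to 5 and at 128, 176, 157, 146 and 132 CPM in spleen cTregs, and the groups overlapped (log2 fold change 0.24 ± 0.12 SE, adjusted p 0.35). Cd44 was at 42.6 to 79.8 CPM in lung and 38.5 to 78.8 CPM in spleen cTregs, below the 243 to 326 CPM of lung and 127 to 214 CPM of spleen ST2- CD44hi eTregs. Il1rl1, which encodes ST2, had 20 counts in lung and 3 in spleen cTregs over 5 libraries each, a ratio of 7.31 with a 95% counting interval of 2.17 to 38.4. In ST2+ CD44hi eTregs it was at 766 to 938 CPM in lungs. Cd4 was at 226 to 469.9 CPM in lungs and 235 to 398 CPM in spleen, and Cd8a had counts only in the spleen library of mouse 5, at 8.15 CPM.

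Of 13173 protein-coding genes tested, 279 were higher and 137 were lower in lung than in spleen cTregs, 3.16% in all (2.12% higher and 1.04% lower). A gene was called at an adjusted p of at most 0.05 and a fold change of at least 1.5, with edgeR's quasi-likelihood test on the 14 groups of the series together, which share 1 spread per gene. The median log2 fold change was 1.32 among the higher genes and -0.98 among the lower ones, and 0.00 over all genes tested. Values of the 5 lung libraries did not overlap those of the 5 spleen libraries for 206 of the 279 higher and 101 of the 137 lower genes. Over all 13173 tested genes, 815 did not overlap. The called genes were picked in these same libraries, so their lack of overlap is no separate support. At an unadjusted p under 0.05 there were 1945 genes. In such bulk libraries, fewer cells that express a gene and less RNA of it per cell cannot be told apart. With the 10 cTreg libraries fitted alone, 305 genes were higher and 188 lower (3.74% of all genes in all), and 323 of the 416 calls were shared. With mouse as a block, 311 were higher and 159 lower in the fit of all groups, and 308 and 204 in the fit of the 10 libraries (3.89%). Leaving out mouse 3 in every group reduced the calls to 193 higher and 42 lower genes. With limma and voom with quality weights, the method of the study, 503 genes were higher and 446 lower at the same thresholds.

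**Figure D1:**
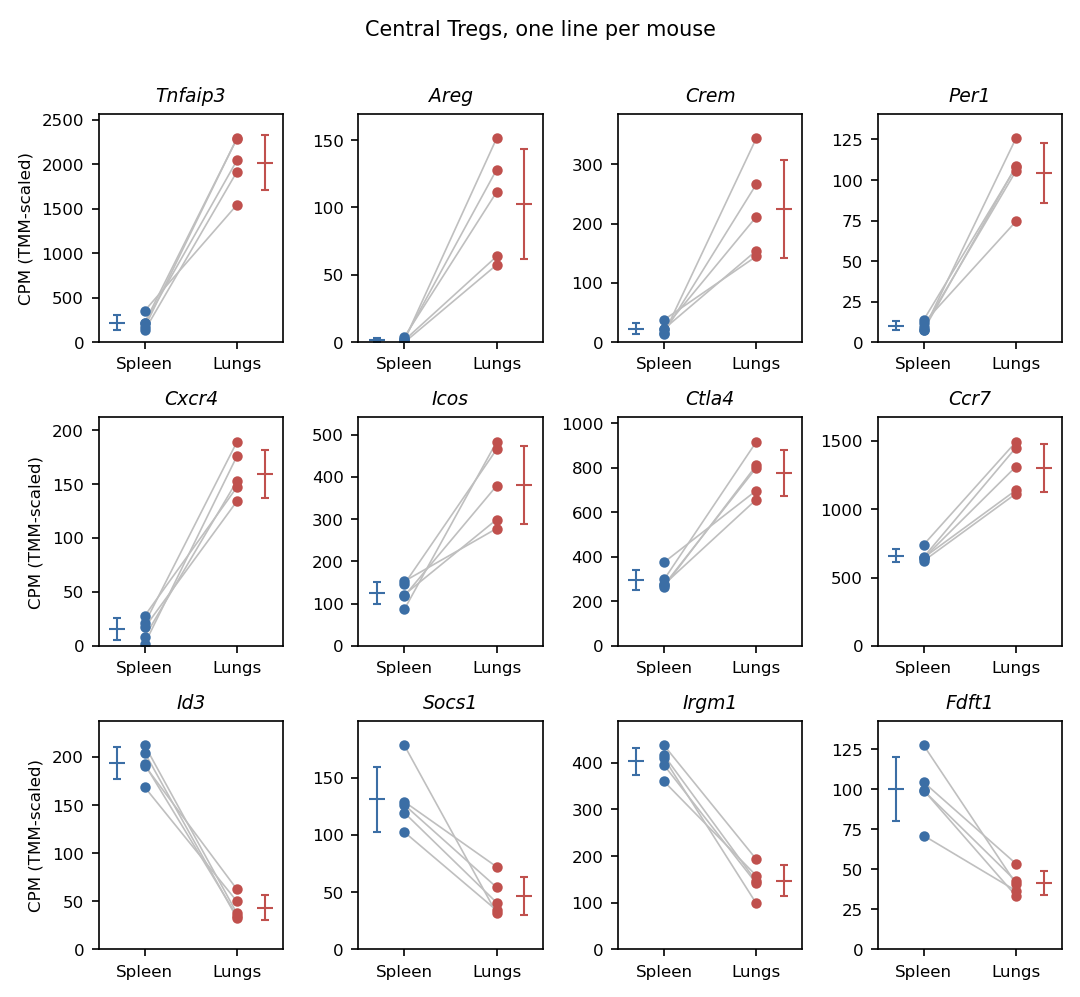
CPM, scaled with TMM factors, of 12 genes in spleen (blue) and lung (red) central Tregs, with a line for each of 5 mice and the mean ± SD of each tissue beside the points (linear axes from 0). Tnfaip3, Areg, Crem, Per1, Cxcr4, Icos, Ctla4 and Ccr7 were higher in the lungs of 5 of 5 mice, and Id3, Socs1, Irgm1 and Fdft1 were lower in 5 of 5. Ccr7 was not called in the fit of 14 groups (adjusted p 0.23).

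Tnfaip3 had the smallest adjusted p of all genes. It encodes A20, an enzyme that ends NF-kB signalling, and NF-kB itself induces it. It was at 2044, 2288, 2291, 1545 and 1917 CPM in lung cTregs of mice 1 to 5 and at 215, 223, 170.0, 356 and 136 CPM in spleen cTregs (log2 fold change 3.20 ± 0.17 SE, adjusted p 2.6e-22). The lung and spleen libraries did not overlap. Of 21 tested genes of NF-kB feedback and its targets, 7 were higher and 1 was lower, beside 2.12% and 1.04% of all genes, and the list's median log2 fold change was 0.53. This list and those below were chosen with earlier results of these data known. Their shares beside those of all genes are therefore descriptions and no separate support. The other higher members were Birc3, an inhibitor of apoptosis (403 to 549 against 227 to 275 CPM, log2 fold change 0.92, adjusted p 1.7e-06), the NF-kB subunit gene Rel (214 to 347 against 90.8 to 170.4 CPM, log2 fold change 1.37), Traf1, a TNF receptor adaptor (log2 fold change 0.78), and Nfkbia, which encodes the inhibitor IkB-alpha (553 to 733 against 358 to 403 CPM, log2 fold change 0.72). Ccrl2, an atypical chemokine receptor, had a log2 fold change of 1.86 and was not called in the 10 libraries alone (adjusted p 0.098). Cd83 rose as well and is described with the eTregs below. Bcl3, an atypical IkB protein that acts in the nucleus, went the other way. It was at 70.6, 82.3, 94.2, 68.3 and 89.4 CPM in lungs and 202, 186, 169.6, 169 and 166 CPM in spleen, with no overlap (log2 fold change -1.14 ± 0.17 SE, adjusted p 1.9e-06).

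Early-response genes made up the list with the most calls. Of its 38 members, all tested, 20 were higher in lung cTregs and 0 were lower, 52.6% higher beside 2.12% of all genes, and the median log2 fold change was 0.93. The list was set up as a measure of tissue dissociation, from genes known to respond to digestion. Like the other lists, it was chosen with earlier results of these data known, so its share is a description. DESeq2 called 21 higher and 1 lower, limma with voom and quality weights 21 higher and 2 lower, and leaving out any mouse or cTreg library left 18 to 22 higher and 0 or 1 lower. At an unadjusted p under 0.05 with edgeR, 27 members were higher and 4 lower. The nuclear receptor gene Nr4a2 was at 66.2, 50.2, 33.3, 90.8 and 32.7 CPM in lungs and 0, 1.98, 0.774, 0 and 0.388 CPM in spleen (log2 fold change 6.27 ± 0.75 SE, adjusted p 5.1e-09). Fosl2, which encodes a subunit of the AP-1 factor, was at 21, 72.3, 43.1, 49.9 and 51.5 CPM in lungs and 0.366, 1.19, 0, 4.13 and 0 CPM in spleen (log2 fold change 5.49 ± 0.55 SE, adjusted p 1.6e-11). Both genes were thus close to undetected in spleen cTregs and present in every lung library.

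Sik1, a kinase gene induced by cAMP, was at 133 to 161 CPM in lungs and 11.6 to 24.2 CPM in spleen (log2 fold change 3.06 ± 0.31, adjusted p 4.5e-11). Dusp5 and Dusp1 encode phosphatases that switch off MAP kinases, and both were higher (204 to 288 against 32.2 to 93.5 CPM and 971 to 1138 against 163 to 502 CPM). Their log2 fold changes were 2.27 ± 0.27 and 1.82 ± 0.23. The transcription factor gene Cebpb was at 67 to 99.9 CPM in lungs and 15.1 to 39.2 CPM in spleen (log2 fold change 1.79 ± 0.22, adjusted p 7.5e-09). Nr4a1, named here after its value was seen, was at 352 to 679 CPM in lungs and 13.9 to 101 CPM in spleen (log2 fold change 3.09 ± 0.39 SE, adjusted p 2.4e-08). Ppp1r15a, also named after its value was seen, encodes a phosphatase subunit of the stress response and had a log2 fold change of 1.73 ± 0.27. The other 259 higher genes and the 137 lower genes of the comparison were not on the list.

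Other early genes did not pass the test, and some had values in the opposite direction. Fos was at 495, 777, 564, 687 and 533 CPM in lungs and at 55.7, 463, 98, 355 and 155 CPM in spleen, and the groups did not overlap (log2 fold change 1.44 ± 0.49 SE, adjusted p 0.092). Jun was at 474, 706, 609, 593 and 442 CPM in lungs and 145, 434, 187, 374 and 151 CPM in spleen (log2 fold change 1.13 ± 0.40 SE, adjusted p 0.11). The spleen libraries of mice 2 and 4 were the highest for both genes. Within mice the differences were past the threshold, with an adjusted p of 0.012 for Fos and 0.0098 for Jun when mouse was a block in the fit of all groups, and 0.0012 and 2.2e-04 in the 10 libraries with the block. Egr1 was lower in the lungs of 5 of 5 mice, at 62.9, 11, 20.6, 37.3 and 15.6 CPM in lungs and 89.8, 66.3, 112, 40.3 and 133 CPM in spleen (log2 fold change -1.57 ± 0.54 SE, adjusted p 0.10). It was called in the 10 libraries alone (adjusted p 0.043). Egr2 was at 8.09, 3.01, 0.469, 0 and 18 CPM in lungs and 5.50, 40.1, 55.4, 1.55 and 71 CPM in spleen (log2 fold change -2.52 ± 0.97 SE, adjusted p 0.16), with overlap. These 4 genes were picked out after their values were seen.

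**Figure D2:**
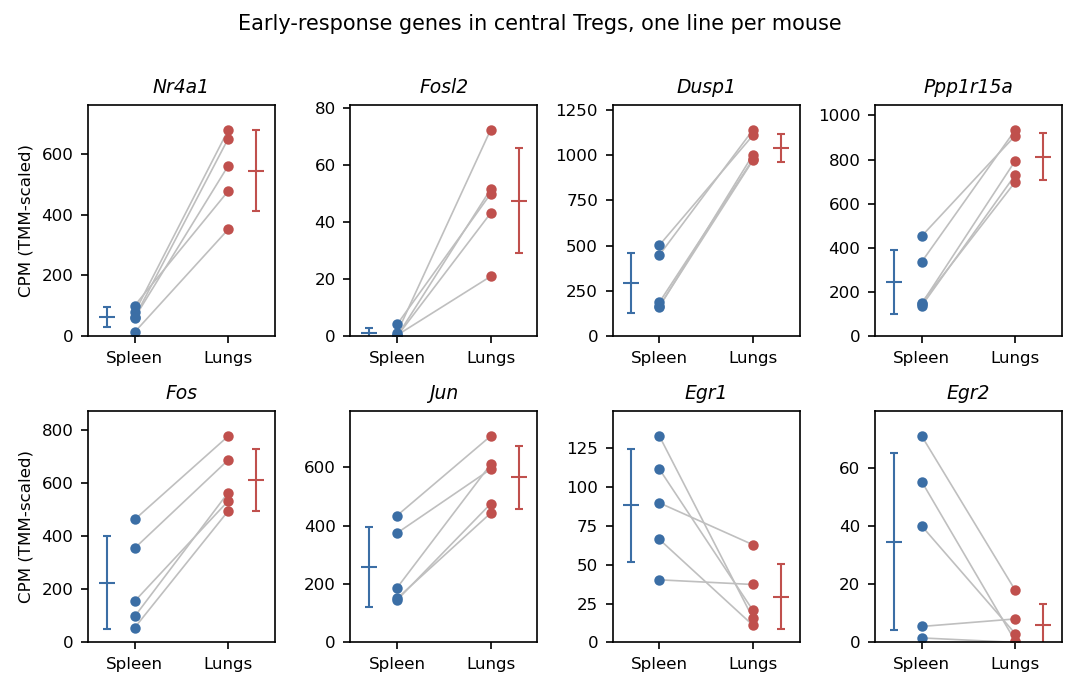
CPM, scaled with TMM factors, of 8 early-response genes in spleen (blue) and lung (red) central Tregs, with a line for each of 5 mice and the mean ± SD of each tissue (linear axes from 0). Nr4a1, Fosl2, Dusp1 and Ppp1r15a did not overlap between tissues, Fos and Jun had high spleen libraries in mice 2 and 4, and Egr1 was lower in the lungs of 5 of 5 mice.

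The level of the early-response list, taken as the mean log2 CPM over its 38 genes, was 6.50 ± 0.14 in lung and 5.32 ± 0.19 in spleen cTregs (SD, n = 5 each), with no overlap. Lung ST2- CD44hi eTregs were at 6.55 ± 0.15 and spleen ST2- CD44hi eTregs at 5.55 ± 0.25. The undigested blood ST2- CD44hi eTregs were lower still, at 4.86 ± 0.19, while VAT, which was digested with the same enzyme as lungs, was at 7.07 ± 0.47. In colon and skin, also digested, the list was at 7.48 ± 0.28 and 7.75 ± 0.21 (SD, n = 5 each). The part of digestion in the lung values was not tested, and no cTregs of another digested tissue were sorted. The methods name enrichment of CD4+ T cells with a kit before the sort for spleen and lungs only. Levels of the other tissues thus differ in this step too.

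The heat shock list, the other dissociation measure, was much closer between the tissues. It stood at 6.14 ± 0.20 in lung and 5.97 ± 0.23 in spleen cTregs (SD, n = 5 each) and overlapped, and skin ST2- CD44hi eTregs were at 7.71 ± 0.10. Of its 19 genes, 1 was higher and 0 were lower (2.12% and 1.04% of all genes), and the median log2 fold change was 0.12. This gene was Dnajb4, a co-chaperone of HSP70 (72.2 to 109 against 27.1 to 54.6 CPM, log2 fold change 1.16, adjusted p 0.031), and its call was lost in 11 of 15 fits that left out a mouse or a cTreg library.

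**Figure D3:**
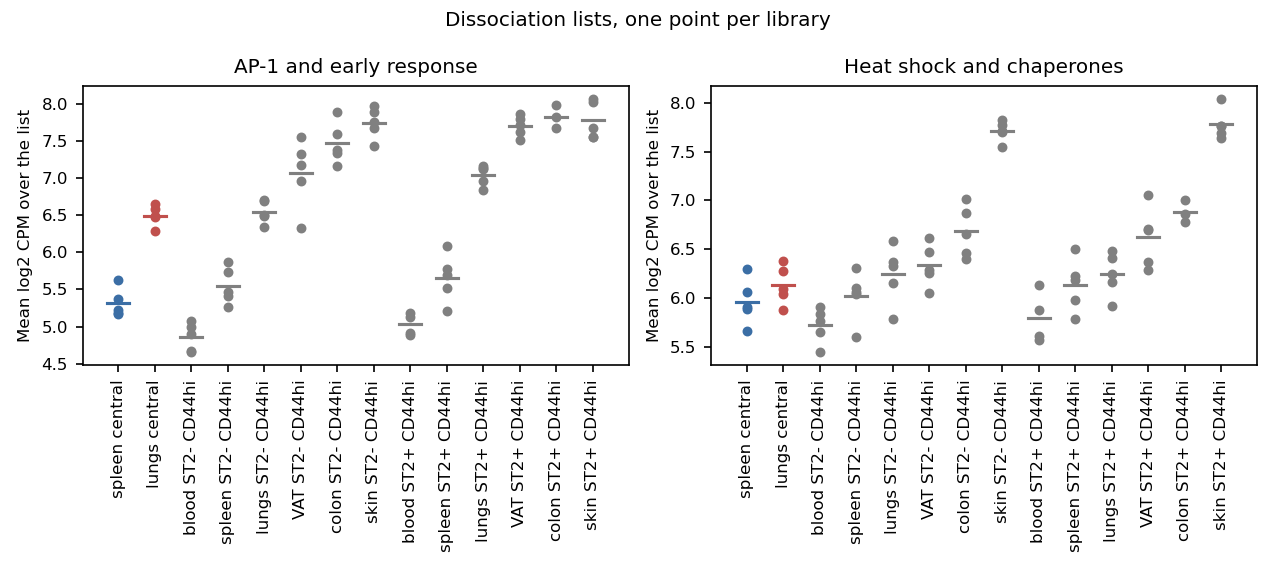
Mean log2 CPM over the 38 early-response genes (left) and the 19 heat shock genes (right), 1 point per library and a bar at each group's mean, for the 14 groups with 3 to 5 libraries each. Lung central Tregs (red) sat at 6.29 to 6.65 for the early-response list, above spleen central Tregs (blue) at 5.17 to 5.63, and the heat shock list overlapped.

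Per1 and Crem were among the 15 higher genes with the smallest adjusted p. Crem, a transcription factor gene of the cAMP pathway, was at 154, 266, 211, 343 and 145 CPM in lungs and 22.7, 16.3, 23.2, 14.5 and 38 CPM in spleen (log2 fold change 3.27 ± 0.27 SE, adjusted p 2.1e-14). Per1, a clock gene that glucocorticoids and cAMP induce, was at 108, 108, 74.5, 106 and 126 CPM in lungs and 7.70, 13.9, 12, 9.30 and 7.76 CPM in spleen (log2 fold change 3.36 ± 0.33 SE, adjusted p 1.5e-11). Neither gene overlapped between the tissues. Of 24 glucocorticoid and circadian genes, 8 were higher and 1 was lower, beside 2.12% and 1.04% of all genes, and the median log2 fold change was 0.27. Tsc22d3, the glucocorticoid target GILZ, was at 814 to 998 CPM in lungs and 386 to 603 CPM in spleen (log2 fold change 0.78 ± 0.16, adjusted p 0.0011). The lower member was Ddit4, a stress gene that glucocorticoids also induce (log2 fold change -2.59 ± 0.72, adjusted p 0.023). Ddit4 was named after its value was seen, and its call was lost in 9 of 15 fits that left out a mouse or a cTreg library. The list shares Dusp1, Cxcr4, Bhlhe40 and Il7r with other lists described here. The time of day at which each tissue was taken is not given in the sources used here.

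Among the remaining genes at the top of the ranking, Odc1 encodes ornithine decarboxylase, the first enzyme of polyamine synthesis. It was at 159, 178, 124, 159 and 135 CPM in lungs and 33.7, 29.4, 44.5, 24.8 and 32.2 CPM in spleen (log2 fold change 2.19 ± 0.17 SE, adjusted p 8.8e-15). Cblb, a ubiquitin ligase that restrains T cell activation, was at 657, 1196, 1049, 745 and 927 CPM in lungs and 178, 173, 179, 182 and 218 CPM in spleen (log2 fold change 2.30 ± 0.21 SE, adjusted p 6.7e-13). Rgs2, a regulator of G protein signalling, was at 418 to 634 CPM in lungs and 67.4 to 132 CPM in spleen (log2 fold change 2.45 ± 0.23). Dusp10, a further MAP kinase phosphatase gene, was at 653 to 928 CPM in lungs and 103 to 149.8 CPM in spleen (log2 fold change 2.73 ± 0.27). The small GTPase gene Rrad (2.04), the ubiquitin ligase gene Rnf125 (2.04) and Vps37b, a part of the ESCRT-I sorting complex (2.58), completed the group, with log2 fold changes in parentheses and adjusted p of at most 4.3e-12. None of these 7 genes overlapped between the tissues.

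Areg encodes amphiregulin, a growth factor of the EGF family that tissue Tregs release in lung repair. It was at 111, 128, 63.7, 151 and 57.4 CPM in lung cTregs of mice 1 to 5 and at 4.03, 2.78, 1.55, 1.55 and 0 CPM in spleen cTregs (log2 fold change 5.62 ± 0.45 SE, adjusted p 1.2e-14). All 5 lung libraries were far above the highest spleen library. Its promoter and those of the early-response genes Dusp1 and Ppp1r15a hold the full cAMP response element TGACGTCA, and they are shown because these genes moved together here. Each sequence runs from 250 bases before to 50 after the RefSeq gene start on build GRCm38.p6, 5′ to 3′ on the strand of the gene, with the element in capitals.
Areg (chr5:91139349-91139648, plus strand): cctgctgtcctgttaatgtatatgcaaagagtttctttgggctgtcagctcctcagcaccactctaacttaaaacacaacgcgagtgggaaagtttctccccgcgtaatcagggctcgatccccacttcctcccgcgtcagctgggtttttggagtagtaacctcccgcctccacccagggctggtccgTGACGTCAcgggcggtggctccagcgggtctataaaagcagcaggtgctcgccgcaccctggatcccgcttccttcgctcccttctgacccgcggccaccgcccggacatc
Dusp1 (chr17:26508423-26508722, minus strand): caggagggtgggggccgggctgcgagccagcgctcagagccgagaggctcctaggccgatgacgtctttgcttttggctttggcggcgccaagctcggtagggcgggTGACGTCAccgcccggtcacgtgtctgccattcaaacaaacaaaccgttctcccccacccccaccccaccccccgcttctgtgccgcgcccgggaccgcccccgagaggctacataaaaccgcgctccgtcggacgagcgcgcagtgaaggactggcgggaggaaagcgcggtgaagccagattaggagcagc
Ppp1r15a (chr7:45526219-45526518, minus strand): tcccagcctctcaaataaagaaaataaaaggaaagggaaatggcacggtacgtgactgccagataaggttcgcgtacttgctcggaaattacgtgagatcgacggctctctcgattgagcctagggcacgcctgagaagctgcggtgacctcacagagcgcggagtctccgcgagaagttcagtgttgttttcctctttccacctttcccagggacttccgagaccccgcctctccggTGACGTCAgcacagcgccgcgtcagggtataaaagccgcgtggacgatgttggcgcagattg
The element began 61 bases before the start in Areg, 143 in Dusp1 and 12 in Ppp1r15a. Its 8 letters read the same on both strands. It was present in 18 of the 220 higher genes with a window in the table (8.18%), 4 of 114 lower genes (3.51%), 361 of 10360 tested genes (3.48%) and 549 of all 27025 symbols (2.03%). These genes and this motif were chosen after the values were seen, and a match of letters is a description and does not show that a factor is bound. 

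The promoters of Tnfaip3 and Nfkbia were searched for the NF-kB form of GGG, any 2 bases and TTTCC, and for its reverse complement, since both genes are NF-kB targets. The windows are as above, with the match in capitals.
Tnfaip3 (chr10:19015361-19015660, minus strand): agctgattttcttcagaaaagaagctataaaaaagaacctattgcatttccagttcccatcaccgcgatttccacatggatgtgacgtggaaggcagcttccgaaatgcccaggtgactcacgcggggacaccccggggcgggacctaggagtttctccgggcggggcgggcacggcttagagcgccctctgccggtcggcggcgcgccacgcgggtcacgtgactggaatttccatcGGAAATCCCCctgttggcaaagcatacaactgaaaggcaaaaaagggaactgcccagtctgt
Nfkbia (chr12:55492598-55492897, minus strand): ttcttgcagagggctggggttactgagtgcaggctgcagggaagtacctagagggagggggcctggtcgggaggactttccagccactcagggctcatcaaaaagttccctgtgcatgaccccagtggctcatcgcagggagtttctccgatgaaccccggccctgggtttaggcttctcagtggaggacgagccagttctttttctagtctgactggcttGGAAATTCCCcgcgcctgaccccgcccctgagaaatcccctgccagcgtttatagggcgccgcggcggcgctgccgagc
The match began 12 bases before the start in Tnfaip3 and 29 in Nfkbia. Tnfaip3 has 2 windows in the table, of which the other held no match. The form was present in 12 of 220 higher genes (5.45%), 2 of 114 lower genes (1.754%), 222 of 10360 tested genes (2.14%) and 512 of 27025 symbols (1.89%). None of the 5 windows printed held both motifs.

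Some genes of Treg function were higher in lung cTregs, while Foxp3 itself did not pass the test. Of 23 tested Treg identity genes, 6 were higher and 0 were lower (2.12% and 1.04% of all genes), and the median log2 fold change was 0.19. Ctla4, the inhibitory receptor through which Tregs strip ligands from antigen-presenting cells, was at 658, 801, 811, 917 and 698 CPM in lungs and 276, 273, 266, 298 and 376 CPM in spleen (log2 fold change 1.38 ± 0.14 SE, adjusted p 5.0e-11). The co-stimulatory receptor gene Cd28 was at 768 to 989 CPM in lungs and 395 to 467 CPM in spleen (log2 fold change 0.94 ± 0.12, adjusted p 3.1e-08). Tnfrsf4, which encodes OX40, was at 502 to 615 against 333 to 386 CPM (log2 fold change 0.62 ± 0.12). These 3 genes did not overlap between the tissues. Nt5e, which encodes the ecto-enzyme CD73, was at 284 to 422 against 136 to 243 CPM (log2 fold change 0.90 ± 0.24, adjusted p 0.014). Lrrc32, which encodes the TGF-beta anchor GARP, was at 227 to 679 against 137 to 266 CPM with overlap (log2 fold change 1.32 ± 0.39, adjusted p 0.035). The calls of Nt5e and Lrrc32 were lost in 5 of 15 and 11 of 15 fits that left out a mouse or a cTreg library. The remaining member, Tigit, is described with the eTregs below.

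T cell receptor response genes rose in part. Of 20 genes, 9 were higher and 0 were lower, beside 2.12% and 1.04% of all genes, and the median log2 fold change was 0.69. Icos, a co-stimulatory receptor gene, was at 299, 465, 379, 483 and 278 CPM in lungs and 121, 146, 118, 86.8 and 153 CPM in spleen (log2 fold change 1.60 ± 0.15 SE, adjusted p 6.0e-12). Bhlhe40, a transcription factor gene of activated T cells, was at 153, 214, 162, 135 and 259 CPM in lungs and 29.7, 11.9, 28.3, 10.8 and 12.8 CPM in spleen (log2 fold change 3.28 ± 0.28 SE, adjusted p 1.1e-13). The lowest lung library of both genes was above the highest spleen library. Tagap (1.33) and Ifrd1 (1.57) rose as well, with log2 fold changes in parentheses, and Rgs2, Rel, Tnfrsf4 and Cd69 are given with the other groups. Egr1 and Egr2, which T cell receptor signals induce, had log2 fold changes below 0 (above).

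Of 45 genes of tissue and effector Tregs, 10 were higher and 2 were lower (2.12% and 1.04% of all genes), and the median log2 fold change was 0.67. Nfil3, a transcription factor gene, was at 49.3, 68.8, 121, 44.6 and 87.4 CPM in lungs and 25.3, 12.3, 15.5, 11.4 and 6.21 CPM in spleen (log2 fold change 2.38 ± 0.34 SE, adjusted p 8.2e-07). Crip1, a LIM domain protein gene, was at 329.9 to 501 CPM in lungs and 218 to 243 CPM in spleen (log2 fold change 0.74 ± 0.16). Areg, Bhlhe40, Icos and the chemokine receptor genes Ccr8 and Ccr2 belong to this list too. Batf, a transcription factor gene required by tissue Tregs, was lower in the lungs of 5 of 5 mice, at 55.2, 58.7, 66.5, 63 and 57.4 CPM in lungs and 73.3, 94.1, 124, 105 and 103 CPM in spleen (log2 fold change -0.73 ± 0.17 SE, adjusted p 0.0038). Leaving out mouse 3 ended this call (adjusted p 0.082). Glrx, the other lower member, is described with the eTregs.

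Genes of cell movement differed in a few members. Cxcr4, the receptor for the chemokine CXCL12, was at 189, 134, 176, 147 and 153 CPM in lungs and 20.9, 17.1, 1.94, 27.9 and 8.54 CPM in spleen (log2 fold change 3.40 ± 0.30 SE, adjusted p 3.0e-13). Cd69, which holds T cells in tissue by removing the exit receptor S1PR1, was at 594, 799.6, 704, 895 and 641 CPM in lungs and 223, 629.9, 364, 533 and 410.0 CPM in spleen, with overlap (log2 fold change 0.75 ± 0.22 SE, adjusted p 0.032). Its call was lost in 10 of 15 fits that left out a mouse or a cTreg library and in the 10 libraries alone (adjusted p 0.054) and kept within mice (0.0011 in those 10 with the block). The homing receptor gene Ccr7 was at 1114, 1451, 1312, 1492 and 1139 CPM in lungs and 622, 649.7, 643, 741 and 646 CPM in spleen, and every lung library was above every spleen library (log2 fold change 0.98 ± 0.42 SE, adjusted p 0.23). It did not pass the test in the fit of 14 groups, which share the spread per gene. In VAT ST2- CD44hi eTregs, 1 of these groups, Ccr7 was at 24.5 to 478 CPM. It passed in the 10 libraries alone (adjusted p 1.3e-05), in those 10 with the mouse block (1.5e-06) and with voom on all groups (2.9e-05), but not with the mouse block on all groups (0.21). S1pr1, named after its value was seen, was at 859 to 1042 CPM in lungs and 708 to 787 CPM in spleen, without overlap, and its fold change was under 1.5 (log2 fold change 0.35 ± 0.19 SE, adjusted p 0.39).

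Of 21 genes of lymphoid recirculation and adhesion, 2 were higher and 0 lower (median log2 fold change 0.35), and of 17 chemokine receptor genes, 3 were higher and 0 lower (median 1.07), beside 2.12% and 1.04% of all genes. Ccr8, a skin and tissue homing receptor gene, was at 40.4, 63.2, 19.2, 33.6 and 93.7 CPM in lungs and 15, 13.5, 9.29, 16.5 and 12.8 CPM in spleen (log2 fold change 1.91 ± 0.35 SE, adjusted p 1.1e-04). Ccr2, a receptor for inflammatory chemokines, was at 0, 0.502, 0, 7.35 and 21.1 CPM in lungs and 0.366, 0, 0, 0 and 1.16 CPM in spleen (log2 fold change 3.97 ± 1.17 SE, adjusted p 0.037). Its signal came mainly from the lungs of mice 4 and 5, and without the lung library of mouse 5 the adjusted p was 0.54. It was also not called in the 10 libraries alone (0.20).

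Of 22 quiescence and naive T cell genes, 4 were higher and 1 was lower (2.12% and 1.04% of all genes), and the median log2 fold change was 0.39. Klf2, the factor that keeps T cells quiescent and drives S1pr1, was at 454, 523, 503, 551 and 427 CPM in lungs and 287, 254, 210.2, 290.2 and 173 CPM in spleen (log2 fold change 1.02 ± 0.17 SE, adjusted p 1.2e-05). Il7r, the receptor gene for the survival cytokine IL-7, was at 462, 712, 459.7, 775 and 538 CPM in lungs and 235, 271, 207, 264 and 249 CPM in spleen (log2 fold change 1.26 ± 0.18 SE, adjusted p 2.8e-07). Ets1 (log2 fold change 0.66 ± 0.08) and the anti-proliferative gene Btg2 (0.80 ± 0.18) were also higher, and none of the 4 overlapped between the tissues. Id3, an inhibitor of E proteins that marks resting Tregs, was the lower member. It was at 50.01, 32.6, 34.7, 62.5 and 37.5 CPM in lungs and 169, 204, 192, 191 and 212 CPM in spleen (log2 fold change -2.16 ± 0.46 SE, adjusted p 0.0016), a difference of the same direction as in ST2- CD44hi eTregs (log2 fold change -2.31).

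Of 17 tested genes of TGF-beta signalling, 6 were higher and 0 were lower (median log2 fold change 0.52), beside 2.12% and 1.04% of all genes. Several of them hold the pathway back. Tgif1, a corepressor of SMAD proteins, was at 315, 339, 440.5, 334 and 308 CPM in lungs and 55, 73.4, 86.7, 71.8 and 29.1 CPM in spleen (log2 fold change 2.46 ± 0.19 SE, adjusted p 2.5e-15). The SMAD corepressor genes Ski and Skil had log2 fold changes of 1.27 ± 0.18 and 1.07 ± 0.21. Rgcc, a cell cycle regulator that TGF-beta induces, was at 129 to 292 CPM in lungs and 25 to 49.3 CPM in spleen (log2 fold change 2.53 ± 0.34, adjusted p 9.4e-08). Lrrc32 and Itgb8 encode the anchor and the integrin that activate TGF-beta on Tregs. Itgb8 was at 9.93 to 59.5 against 5.05 to 16 CPM (log2 fold change 1.39 ± 0.41, adjusted p 0.035), and its call was lost in the 10 libraries alone (0.15) and in 9 of 15 fits that left out a mouse or a library.

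The lists with 0 lower genes in edgeR had few at an unadjusted p under 0.05. There were 2 such lower genes in the T cell receptor list, 1 in the recirculation list, 2 in the cell cycle list and 0 in the chemokine receptor, Treg identity, TGF-beta, GIMAP and heat shock lists. DESeq2 called 1 lower gene in the T cell receptor list and 0 in the other 7.

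**Figure D4:**
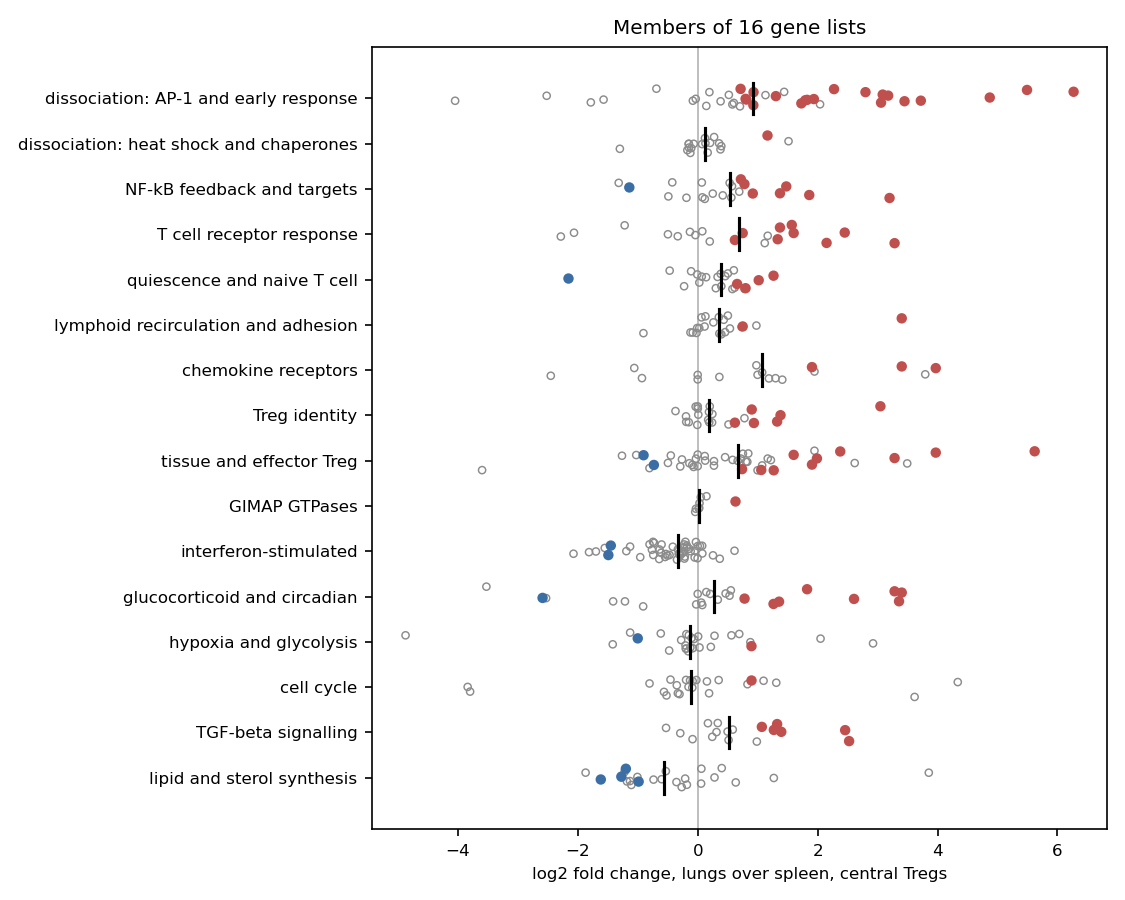
Log2 fold change, lungs over spleen, of the tested members of 16 gene lists in central Tregs. Filled points were called higher (red) or lower (blue), open points were not called, and black bars are list medians, from 1.07 for chemokine receptors to -0.57 for lipid and sterol synthesis.

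Socs1 and Cish, inhibitors of cytokine receptor signals, were among the 15 lower genes with the smallest adjusted p. Socs1, which blocks JAK kinases after interferon or gamma-chain cytokines, was at 31.6, 34.1, 72.2, 41 and 54.3 CPM in lungs and 178, 102, 129, 119 and 126 CPM in spleen (log2 fold change -1.49 ± 0.20 SE, adjusted p 1.7e-07). Cish, a target of STAT5 downstream of IL-2, was at 125, 151, 138, 95.6 and 165 CPM in lungs and 275, 199, 233, 223 and 271 CPM in spleen (log2 fold change -0.83 ± 0.17 SE, adjusted p 6.6e-04). Both were lower in the lungs of 5 of 5 mice and did not overlap. Irgm1, an interferon-induced GTPase, was at 193, 158, 146, 98.7 and 142 CPM in lungs and 437, 360.0, 416, 409.5 and 395 CPM in spleen (log2 fold change -1.45 ± 0.30 SE, adjusted p 7.8e-04). Tmem173, which encodes the nucleic acid sensor adaptor STING, was at 243 to 327 CPM in lungs and 424 to 511 CPM in spleen (log2 fold change -0.66 ± 0.12). Of 50 interferon-stimulated genes, 0 were higher and 2, Irgm1 and Socs1, were lower, 4% beside 1.04% of all genes, with a median log2 fold change of -0.32. At an unadjusted p under 0.05, 1 was higher and 9 lower. DESeq2 called 3 lower, and the fit of the 10 libraries with the mouse block called 6 lower and 1 higher.

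Some genes of cholesterol synthesis were lower in lung cTregs. Of 24 lipid and sterol synthesis genes, 0 were higher and 4 were lower (median log2 fold change -0.57), beside 2.12% and 1.04% of all genes. Fdft1, the squalene synthase gene, was at 33.5, 36.6, 42.6, 53.6 and 41.1 CPM in lungs and 99.3, 71, 99.1, 104 and 127 CPM in spleen (log2 fold change -1.27 ± 0.21 SE, adjusted p 1.0e-05). Sqle, the squalene epoxidase gene, was at 25.4, 8.03, 35.6, 23.6 and 53.1 CPM in lungs and 65.6, 75.4, 137, 95 and 76.5 CPM in spleen (log2 fold change -1.62 ± 0.44 SE, adjusted p 0.020). Hmgcs1 (log2 fold change -1.20 ± 0.32, adjusted p 0.016) and Msmo1 (-0.98 ± 0.28, adjusted p 0.031) also lie on this pathway, and the 4 were lower in the lungs of 5 of 5 mice. The calls of Hmgcs1, Sqle and Msmo1 were lost in 6 of 15, 6 of 15 and 10 of 15 fits that left out a mouse or a cTreg library. The number of lower members was 9 with voom, 8 with DESeq2 and 1 without mouse 3, in which Fdft1 remained. At an unadjusted p under 0.05, 1 member was higher and 8 were lower. In ST2- CD44hi eTregs, edgeR called 0 members, 1 was at an unadjusted p under 0.05, and the median log2 fold change was 0.10. None of the 4 lower genes was among the 17 genes called in the test of the difference between cTregs and eTregs (below). The elongase gene Elovl1, which makes very long fatty acids and is not on the list, was lower too (log2 fold change -0.79 ± 0.15, adjusted p 2.8e-04).

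The gene with the smallest adjusted p among those lower in lungs was AI467606, an uncharacterised gene. It was at 145, 98.9, 138, 132 and 148 CPM in lungs and 383, 354, 374, 310.4 and 347 CPM in spleen (log2 fold change -1.42 ± 0.15 SE, adjusted p 6.9e-11). Tuba4a and Tubb4b encode tubulins. Tuba4a was at 134 to 211 CPM in lungs and 328 to 395 CPM in spleen (log2 fold change -0.99 ± 0.13, adjusted p 1.2e-07), and Tubb4b was at 55.5 to 87.2 against 119 to 140.0 CPM (-0.88 ± 0.15). The tyrosine phosphatase gene Ptpn7 was at 66.2 to 196 against 252 to 380.2 CPM (-1.249 ± 0.21). The rest of the 15 genes were Cep19, a centrosome protein gene (-1.98 ± 0.39), the protease gene Fam111a (-1.05 ± 0.21), Nudt19 (-1.003 ± 0.20) and Cdkn2aipnl (-0.84 ± 0.15), with log2 fold changes ± SE in parentheses. Except for Cdkn2aipnl, the values of these genes did not overlap between the tissues.

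Few genes of metabolism and proliferation passed the test. Of 27 hypoxia and glycolysis genes, 1 was higher and 1 was lower (median log2 fold change -0.12), close to the 2.12% and 1.04% of all genes, and the 2 lists that follow had 1 call each. The higher was Hif1a, the hypoxia factor gene (233 to 325 against 129 to 200.1 CPM, log2 fold change 0.90 ± 0.14). The lower was the glucose transporter gene Slc2a1 (15 to 89.9 against 90.1 to 141 CPM, log2 fold change -0.9998 ± 0.29, adjusted p 0.035, and 0.098 in the 10 libraries alone). It was lost in 10 of 15 fits that left out a mouse or a cTreg library. Of 24 cell cycle genes, Hmgb2, a chromatin protein gene, was higher (log2 fold change 0.89 ± 0.23, adjusted p 0.014, and 0.17 in the 10 libraries alone) and 0 were lower. Of 8 GIMAP genes, GTPases of lymphocyte survival, Gimap6 was higher (log2 fold change 0.62 ± 0.11) and 0 were lower.

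RNA of lung epithelium was present in the lung libraries at a low level. Of 16 epithelial marker genes, 9 passed the filter on low values, and 3 of these were called higher, beside 2.12% of all genes. Of the 16, 12 had no count in any spleen cTreg library. A marker without counts there passed the filter only through other libraries, such as those of lungs. Its call therefore describes presence in lungs and is no separate test. The summed level of the 16 was 67.0 to 233 CPM in lungs and 13.4 to 28.0 CPM in spleen. Sftpc, a surfactant gene, was at 124, 5.52, 28.6, 61.4 and 31.5 CPM in lungs and had no count in spleen, at least 221-fold higher against a floor of 3 counts over the spleen group. Scgb1a1, a club cell gene, was at 34.2, 34.1, 13.6, 35.7 and 19.9 CPM and was at least 113-fold higher, and Sftpa1 was at 58.8, 0, 5.62, 0 and 0 CPM and at least 62.9-fold higher. The call of Sftpa1 was lost with the mouse block (adjusted p 0.12) and in 11 of 15 fits that left out a mouse or a cTreg library, such as the lung library of mouse 1. Myeloid markers summed to 39.4 to 222 CPM in lungs and 35.6 to 104 CPM in spleen, with 10 of 22 at 0 in all spleen and 13 at 0 in all lung libraries. Of the 19 tested, edgeR called 0, with 3 at an unadjusted p under 0.05 and 1 called by DESeq2. Lyz2, a macrophage lysozyme gene named after its value was seen, was at 107, 3.51, 0, 1.58 and 12 CPM in lungs and 0, 3.18, 0, 0 and 1.55 CPM in spleen (log2 fold change 4.62 ± 1.43 SE, adjusted p 0.054). Fibroblast markers summed to 0.368 to 13.1 CPM in lungs and 0 to 0.516 CPM in spleen, endothelial ones to 304 to 398 and 229 to 371 CPM, and B cell ones to 426 to 579 and 559 to 664 CPM. Of 11 endothelial markers, 8 were at 0 in all lung and 9 in all spleen cTreg libraries, so few genes made up that sum. Of 13 B cell markers, 5 were at 0 in all lung and 4 in all spleen cTreg libraries. These sums therefore do not rank the cell types by their RNA. Those of red cells summed to at most 32.8 CPM in lungs and 15.1 CPM in spleen, and those of neutrophils to at most 1.20 and 2.58 CPM. CD8 T and NK cell markers summed to 73.0 to 109.9 CPM in lungs and 67.7 to 137 CPM in spleen. Of the 39 tested markers of B cells, endothelium, fibroblasts, red cells, and CD8 T and NK cells, edgeR called 0, with 4 at an unadjusted p under 0.05, and DESeq2 called 2. No neutrophil marker passed the filter. The part of these cells in the other results was not tested.

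The lung and spleen difference was also measured in ST2- CD44hi eTregs of the same mice, in libraries of their own. These eTregs went through the same tissue preparation as the cTregs. Tissue and digestion thus cannot be told apart in the shared calls either. Of the 279 genes higher in lung cTregs, 180 were also called higher in lung eTregs, 64.5% of the former and 42.7% of the 422 genes called higher in the latter, beside 3.20% of all genes. Of the 137 lower genes, 37 were also lower (27.0% of 137 and 33.9% of 109), beside 0.827% of all genes. No gene was called in opposite directions. The median log2 fold change of the 279 genes was 1.32 in cTregs and 1.06 in eTregs, and that of the 137 genes was -0.98 and -0.57. In ST2+ CD44hi eTregs, 166 of the 279 and 36 of the 137 were called the same way (37.6% of 441 and 17.9% of 201), beside 3.35% and 1.53% of all genes, and 1 and 2 were called the opposite way.

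The difference between lungs and spleen itself differed between cTregs and ST2- CD44hi eTregs for 17 genes (0.129%), 6 more and 11 less positive in cTregs, and 826 were at an unadjusted p under 0.05. The number of genes was 3, 2, 4 and 4 without mouse 1, 2, 3 or 4, and 78 with DESeq2. Tigit, an inhibitory receptor gene, was at 9.93, 18.6, 19.7, 19.95 and 8.78 CPM in lung and 0, 0.794, 2.32, 0.516 and 5.05 CPM in spleen cTregs (log2 fold change 3.05 ± 0.48 SE, adjusted p 7.3e-06). In eTregs it was at 225 ± 69.2 CPM in lungs and 203 ± 25.4 CPM in spleen (SD, n = 5 each), and the difference of the log2 fold changes was 2.90 ± 0.57 SE (adjusted p 0.0073). The lung cTregs were far below the eTregs of either tissue. With the 10 libraries fitted alone and the mouse block, the Tigit call in cTregs missed the threshold (adjusted p 0.051). On the log2 scale, Areg rose more in cTregs (log2 fold change 5.62) than in eTregs (3.02), where spleen held 8.23 to 27.8 CPM, and the difference was 2.60 ± 0.58 SE (adjusted p 0.038). Spleen cTregs were near the floor, with 25 counts in all. The level in lungs was not higher in cTregs, at 102 ± 40.7 CPM against 159 ± 51.7 CPM in eTregs (SD, n = 5 each). Cd83, a surface protein gene induced by NF-kB, was at 144, 243, 284, 135 and 123 CPM in lung and 115, 67.5, 55.4, 32 and 62.1 CPM in spleen cTregs (log2 fold change 1.48 ± 0.34, and -0.74 in eTregs, adjusted p of the difference 0.017).

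Ier5l, Sccpdh and Naip5 were close to undetected in spleen cTregs. Ier5l had 188 counts in lung and 1 count in spleen cTregs, a ratio of 206 (95% counting interval 36.5 to 8185), and its log2 fold change in eTregs was 0.90 (adjusted p of the difference 0.0038). Naip5 had 38 counts against 2, a ratio of 20.8 (5.38 to 178). Sccpdh was at 7.72, 6.53, 33.7, 0 and 3.59 CPM in lungs and 1.47, 0, 0, 0 and 0 CPM in spleen, and neither it nor Naip5 was called in the 10 libraries alone (adjusted p 0.066 and 0.22). Sccpdh lost its call without the lung library of mouse 3.

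The genes with a less positive difference in cTregs included Vim, the intermediate filament gene vimentin. It was at 296, 294, 310.2, 339 and 375 CPM in lung and 359.5, 306, 311, 355 and 361 CPM in spleen cTregs, with overlap. In eTregs it was at 624 ± 80.1 CPM in lungs and 350.2 ± 21.7 CPM in spleen (SD, n = 5 each), and the difference of the log2 fold changes was -0.90 ± 0.17 SE (adjusted p 0.0038). Sept11, a cytoskeletal septin gene, had log2 fold changes of -0.25 in cTregs and 1.26 in eTregs (adjusted p of the difference 0.0038), Cpm, a membrane carboxypeptidase gene, 0.51 and 1.56 (0.0073), and Tmem176a -2.16 and 3.10 (0.0050). Glrx, a glutaredoxin gene, was at 26.1, 12.5, 16.9, 28.4 and 39.1 CPM in lung and 41, 61.1, 48, 34.6 and 46.6 CPM in spleen cTregs (log2 fold change -0.90 ± 0.19 SE, adjusted p 0.0015) and had a log2 fold change of 0.52 in eTregs (adjusted p of the difference 0.0038). Its call in cTregs was lost in the 10 libraries alone (0.13).

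**Figure D5:**
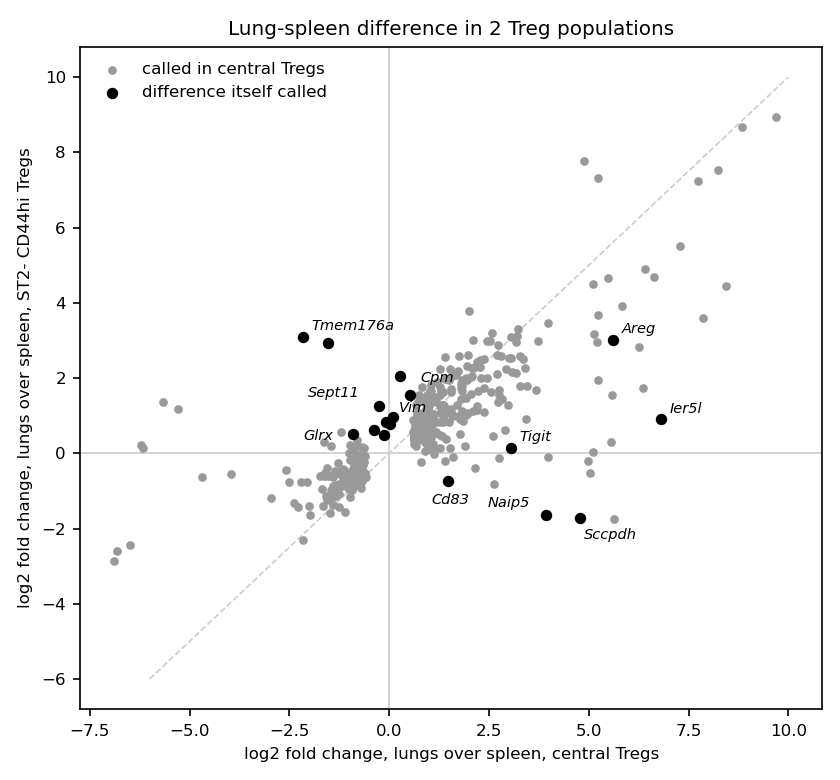
Log2 fold change, lungs over spleen, in central Tregs (horizontal axis) and in ST2- CD44hi Tregs (vertical axis) for the genes called in central Tregs (grey) and the 17 genes whose difference itself was called (black, 11 named). The dashed line marks equal values. Tigit lies near 0 on the vertical axis, Ier5l at 0.90, and Vim and Sept11 lie near 0 on the horizontal axis.

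Blood, VAT, colon and skin ST2- CD44hi eTregs, each compared with spleen ST2- CD44hi eTregs, give the same genes in other tissues. Blood was undigested, and the other tissues were digested. All of these comparisons share the spleen ST2- CD44hi libraries, and none shares a library with the comparison of cTregs. In VAT, 144 of the 279 genes were called higher and 1 lower, beside 4.26% and 1.53% of all genes. In colon, 157 of the 279 were called higher and 1 lower, beside 8.62% and 2.42% of all genes. In skin, 221 of the 279 were called higher and 4 lower, beside 16.7% and 14.1% of all genes. In blood, 54 of the 279 were called higher and 21 lower, beside 1.65% and 1.72% of all genes. Tnfaip3, Cblb, Klf2 and Il7r were among those higher in blood (log2 fold changes 1.76, 1.249, 1.67 and 0.96). Areg, Odc1, Bhlhe40, Nr4a1 and Nfil3 were among those lower in blood (-2.93, -1.15, -1.77, -2.33 and -1.96). Of the 137 lower genes, 20 were lower in VAT and 2 higher, beside 1.53% and 4.26% of all genes, and 15 were lower in blood and 0 higher, with Socs1, Bcl3, Cish and Ptpn7 among them (-0.90, -1.253, -1.06 and -1.42). In colon, 29 of the 137 were lower and 7 higher, beside 2.42% and 8.62% of all genes. In skin, 57 were lower and 11 higher, beside 14.1% and 16.7% of all genes. No cTregs of blood, VAT, colon or skin were sorted, so the population and the tissue differ together in these values. The preparation differed as well, since the methods name enrichment of CD4+ T cells with a kit for spleen and lungs only. Some blood and VAT libraries also came from fewer sorted cells.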

How the data were processed

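The authors sequenced SMART-Seq v4 and NexteraXT libraries as 58-base single reads, trimmed them, aligned them with STAR to GRCm38 and counted reads per gene with HTSeq 0.4.1. They deposited raw counts per gene, unscaled and unfiltered. How strand and multiple mapping were handled is not given in the sources used here, so overlapping, antisense and near-identical genes are uncertain. The table named 53465 gene IDs, 53274 of them in GENCODE M21. Libraries under 1000000 counts were left out (3 of 70, none of cTregs), and coding genes that reached 1 CPM in 10% of the other 67 were tested. At 1 CPM the smallest cTreg library holds 1.83 counts, so low genes are imprecise.

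TMM-scaled counts were fitted with edgeR 4.0.16 (R 4.3.3), quasi-likelihood, 14 groups and no mouse term, with Benjamini-Hochberg adjustment. Adjusted p in the text are from this fit unless another is named. CPM are TMM-scaled, errors of fold changes are SE, and library measures were tested by exact permutation with scipy 1.17.1. Intervals and floors cover counting error only. Named genes were the 15 called genes with the smallest adjusted p per direction, sort genes, up to 6 called members of each of 24 lists, and 5 genes per direction of the cTreg and eTreg difference. Fos, Jun, Egr1, Egr2, Nr4a1, Nfkbia, Batf, Ppp1r15a, Ddit4, S1pr1 and Lyz2 were added after their values were seen. A gene of the sort is not reported here. Members and lists were chosen with earlier results of these data known.

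Libraries of 1 number come from 1 mouse. The deviation of a lung cTreg library from its group mean and that of a spleen library had a mean r of 0.0353 within mice and -0.00865 between mice over 8681 genes, and 0 of 5 pairs were above 0.1. No 2 libraries of a tissue held the same counts. In simulated data for this comparison (13173 genes), edgeR recovered 42% of genes changed 2-fold and 78% of those changed 4-fold with 2 false calls. DESeq2 1.42.0 recovered 48% and 85% with 26 false calls, and voom with quality weights (limma 3.58.1) 41% and 80% with 9. The simulation changed 100 genes per fold, none of them among the low ones. All other genes had 1 mean in all groups, without effects of tissue, population or mouse, unlike the real data.

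The alternatives were DESeq2, voom, median-of-ratios factors, other gene filters, all 70 libraries, mouse as a block, glmTreat, fits of the 10 cTreg libraries or of spleen and lungs alone, and leaving out each mouse or cTreg library. Of these, voom with quality weights is the method the study used, so the main fit departs from it.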

Additional observations from a re-analysis of the deposited data

Results flagged for a closer look

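Among the genes examined singly, 200 pairs of a gene and a tissue were checked for a library far from the other 4, and 14 stood out (7%), beside about 1 in 20 by chance. In spleen cTregs, mouse 4 was apart for Ccr7 (741 CPM, highest), Tmem173 (511 CPM, highest) and Nr4a1 (13.9 CPM, lowest). Mouse 5 was apart in spleen for Cblb (218 CPM, highest), Tuba4a (395 CPM, highest), Ier5l (0.388 CPM, the only library with a count) and Cpm (63.7 CPM, lowest). The spleen library of mouse 1 was apart for Rel (170.4 CPM), Hif1a (200.1 CPM) and Sccpdh (1.47 CPM), and that of mouse 3 for Naip5 (0.774 CPM), all of them the highest. In lung cTregs, Tgif1 was highest in mouse 3 (440.5 CPM), Skil was highest in mouse 2 (366 CPM), and AI467606 was lowest in mouse 2 (98.9 CPM).

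The lung and spleen difference of 11 named genes differed between cTregs and ST2- CD44hi eTregs by the test of the difference itself. On the log2 scale, cTregs minus eTregs, it was 5.91 for Ier5l, 6.49 for Sccpdh, 5.58 for Naip5, 2.90 for Tigit, 2.60 for Areg and 2.21 for Cd83. With 1 and 2 counts in spleen cTregs, the fitted values of Ier5l and Naip5 depend on the prior count. It was -5.26 for Tmem176a, -1.52 for Sept11, -1.42 for Glrx, -1.05 for Cpm and -0.90 for Vim.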

How the results depend on the processing

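Of the 84 named genes called in cTregs, 45 were called in every one of 27 alternative fits, all 15 leading higher and 8 of the 15 leading lower genes among them, and all 84 kept their direction. Depth limits the genes with few counts in spleen, such as Ier5l, Naip5 and Ccr2. The number of genes called in cTregs (416) was 630 with DESeq2 (233 of them lower), 949 with voom and quality weights (503 higher and 446 lower), 251 with all 70 libraries (53 lower), 125 with glmTreat (110 higher and 15 lower) and 713 with spleen and lung libraries alone (301 lower). Without 1 mouse it was 235 to 434, with 193 to 303 higher and 42 to 131 lower, the fewest without mouse 3, and the lower genes were 79, 73 and 73 without mouse 2, 4 or 5. Without 1 cTreg library it was 318 to 441, with 230 to 322 higher and 88 to 119 lower, and the lower genes were 88 and 90 without the lung libraries of mice 2 and 3. The number of genes whose difference differed between cTregs and ST2- CD44hi eTregs (17) was 78 with DESeq2, 103 with voom, 6 with all 70 libraries, 2 with glmTreat, 53 with spleen and lungs alone and 2 to 12 without 1 mouse (3 without mouse 1, 2 without mouse 2, and 4 without mouse 3 or 4). For ST2- CD44hi eTregs (531) it was 1423 with voom, 353 with all 70 libraries, 166 with glmTreat, 860 with spleen and lungs alone and 323 to 471 without 1 mouse. For ST2+ CD44hi eTregs (642) it was 1452 with voom, 212 with glmTreat, 1116 with spleen and lungs alone and 416 to 515 without 1 mouse. The cause of these shifts was not tested. With mouse as a replicate block the cTreg count was 470, and among named genes the block added Fos and Jun and ended the call of Sftpa1, and it changed no other call. Library measures stayed on their side of 0.05 in within-mouse sign flips, which cannot go below 0.0625. Cd44, not called and at -0.11 to 0.22 over these fits, changed sign to -0.11 without mouse 1, -0.09 without mouse 2, -0.03 without the lung library of mouse 1 and -0.05 without the spleen library of mouse 2.

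Some calls ended when a mouse or a cTreg library was left out, with the highest adjusted p in parentheses. The call of Dnajb4 ended without mouse 1, 2, 3 or 4, or the lung library of mouse 2, 3 or 4, or the spleen library of mouse 1, 2, 4 or 5 (0.17). That of Cd69 ended without mouse 2, 3, 4 or 5, or the lung library of mouse 2, 3 or 4, or the spleen library of mouse 1, 3 or 5 (0.21). Ccr2 lost its call without mouse 2, 3, 4 or 5, or the lung library of mouse 4 or 5, or the spleen library of mouse 1, 2, 3 or 4 (0.54). The call of Nt5e ended without mouse 2, 4 or 5, or the spleen library of mouse 3 or 4 (0.094). That of Lrrc32 ended without mouse 2, 3 or 5, or the lung library of mouse 1, 2, 3 or 5, or the spleen library of mouse 1, 2, 4 or 5 (0.15). Slc2a1 lost its call without mouse 1, 3, 4 or 5, or the lung library of mouse 3, 4 or 5, or the spleen library of mouse 1, 2 or 3 (0.29). The call of Hmgb2 ended without mouse 2, 3, 4 or 5, or the lung library of mouse 4 (0.20). That of Itgb8 ended without mouse 2, 3 or 5, or the lung library of mouse 2, 3 or 5, or the spleen library of mouse 1, 2 or 5 (0.27). Hmgcs1 lost its call without mouse 3, 4 or 5, or the lung library of mouse 1 or 4, or the spleen library of mouse 3 (0.17). The call of Sqle ended without mouse 2, 3 or 4, or the lung library of mouse 2 or 4, or the spleen library of mouse 3 (0.14). That of Msmo1 ended without mouse 2, 3, 4 or 5, or the lung library of mouse 1, 2 or 5, or the spleen library of mouse 3, 4 or 5 (0.17). Sftpa1 lost its call without mouse 1, 2, 3, 4 or 5, or the lung library of mouse 1, or the spleen library of mouse 1, 2, 3, 4 or 5 (0.20). The call of Naip5 ended without mouse 2, 4 or 5, or the lung library of mouse 5, or the spleen library of mouse 1, 2 or 5 (0.38). That of Ddit4 ended without mouse 1, 2, 3, 4 or 5, or the lung library of mouse 2 or 4, or the spleen library of mouse 1 or 2 (0.13). Sccpdh lost its call without mouse 3, or the lung library of mouse 3 (0.15). The call of Cd83 ended without mouse 2 or 3 (0.11). That of Glrx ended without mouse 2 or 3 (0.11). Batf lost its call without mouse 3 (0.082). Gimap6 and Tnfrsf4 fell under the fold minimum without the lung library of mouse 4, and Tnfrsf4 without mouse 4.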

Other observations

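Fos and Dusp1 varied between mice within the spleen, in the same mice in all 3 Treg populations. Fos was at 55.7, 463, 98, 355 and 155 CPM in spleen cTregs of mice 1 to 5, at 33.3, 399, 64.8, 274 and 38 CPM in spleen ST2- CD44hi and at 67.1, 474, 51.5, 345 and 17.6 CPM in spleen ST2+ CD44hi eTregs. Mice 2 and 4 were the highest in each population. Dusp1 was also highest in these mice, at 188, 502, 163, 448 and 167 CPM in spleen cTregs, 361, 709, 358, 697 and 373 CPM in ST2- CD44hi and 522, 950.4, 527, 987 and 444 CPM in ST2+ CD44hi eTregs. In the lungs of the same mice, Fos was at 495, 777, 564, 687 and 533 CPM in cTregs and 736, 726, 529.9, 769.8 and 486 CPM in ST2- CD44hi eTregs, highest in mice 2 and 4 in cTregs and in mice 4 and 1 in these eTregs. In lung ST2+ CD44hi eTregs, Fos was highest in mice 2 and 4 (860 and 834 CPM). Lung Dusp1 was highest in mice 2 and 4 in cTregs (1108 and 1138 CPM) and ST2+ CD44hi eTregs (1429 and 1656 CPM). In lung ST2- CD44hi eTregs it was highest in mice 1 and 2 (1235 and 1198 CPM). Cd69 was also highest in mice 2 and 4 in spleen, at 223, 629.9, 364, 533 and 410.0 CPM in cTregs. In lungs, mice 2 and 4 were the highest for Cd69 in each population. They were at 799.6 and 895 CPM in cTregs, 860 and 923 CPM in ST2- CD44hi and 782 and 915 CPM in ST2+ CD44hi eTregs. The mean log2 CPM over the 38 early-response genes was 5.23, 5.63, 5.38, 5.19 and 5.17 in spleen cTregs of mice 1 to 5, so mouse 4 was not high there, and Nr4a1 and Egr1 were lowest in mouse 4. Fos, Dusp1 and Cd69 were picked after their values were seen, and within a tissue the populations of a mouse share an organ and its preparation. The cause of these differences between mice was not tested.

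Genes higher in lung cTregs were longer than those lower, with median exon lengths of 5439 bases and 3069 bases beside 4393 for all genes tested.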
